A study of Mus musculus with 10 samples.

Results

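The genes described here are 36 components, regulators and receptors of the complement system, out of 38922 genes listed for the liver. They were taken from a fixed list of gene symbols with no cut on measured values, but the list was chosen with earlier results of these data known. Each symbol matched a single gene. Of the 36, 28 encode secreted proteins and 8 encode membrane proteins. RNA was sequenced from the whole liver of 10 wild-type male C57BL/6N mice aged 6 weeks. Of these, 5 received saline and 5 received CD95-Ab, an antibody that activates the death receptor CD95, given once into the peritoneal cavity at 0.5 μg per g of body weight. Every animal was killed 6 h after the injection. The saline mice were the only control, with no group given an inactive antibody. Gene values below are counts scaled to a total of 1000000 per library (CPM), adjusted by the trimmed mean of M values (TMM), and are given in the order of replicates 1 to 5 of each group.

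Complement is a cascade of plasma proteins that tags and lyses foreign or damaged cells. C1q and its proteases start the classical pathway, and mannose-binding lectins and ficolins start the lectin pathway. Factor B and properdin drive the alternative pathway. All of them meet in convertases that cleave C3 and then C5, which releases the peptides C3a and C5a and allows C6 to C9 to assemble a pore in the membrane. Hepatocytes make most of the circulating components, while C1q and properdin come largely from macrophages and other myeloid cells. Receptors for the cleavage products sit mainly on leukocytes, and membrane regulators protect host cells.

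The 10 libraries held between 25965699 and 62097636 counts, and 3 counts corresponded to 0.0556 to 0.121 CPM. The library of saline replicate 5 and that of CD95-Ab replicate 4 stood apart in how their values ran with transcript length. Their slopes of log2 CPM on log2 transcript length, each taken against the mean of all mice, were -0.14 and -0.16, while the other 8 libraries had slopes from -0.03 to 0.12. Among the 6 tested complement genes of 3000 bases or longer, 3 were lower in saline replicate 5 than in every other saline mouse. In CD95-Ab replicate 4, 5 of these 6 were lower than in every other CD95-Ab mouse. Among the 29 shorter members, 11 and 16 were the lowest of their group in these libraries. The shortest of the 11 in saline replicate 5 was Serping1, at 1697 bases. In CD95-Ab replicate 4 the shortest of the 16 was C1qa, at 984 bases. The part of transcript length in these low values was not tested. Results that rest on these libraries are given with and without them. Hepatocyte genes dominated both groups, with 7 markers summing to 97309 to 120515 CPM after saline and 44895 to 81725 CPM after CD95-Ab. Most of that sum was Alb, which averaged 84681 and 41411 CPM. Of the 7 markers, Alb and Ttr fell and 5 were not called. The log2 differences of these 5 were 0.17 for Apob, 0.31 for Tat, -0.39 for Apoa1, -0.34 for Hnf4a and -0.72 for Cps1. Many markers of other cells moved with the treatment. The sum of 7 neutrophil genes was 4.08 to 10.5 CPM after saline and 109 to 434 CPM after CD95-Ab, and that of 5 monocyte genes was 5.60 to 15.6 and 67.2 to 136 CPM. The neutrophil marker Mmp8 was at 0 in a saline mouse, and Ly6g was too low to test. Sums of 8 Kupffer cell and macrophage genes overlapped, at 133 to 455 and 278 to 594 CPM, but 3 of the 8 rose: Marco (2.11 on the log2 scale), Cd68 (1.79) and Cd5l (1.01). Endothelial (5 genes), stellate (4 genes) and erythroid (5 genes) sums were 38.8 to 93.8, 128 to 167 and 135 to 323 CPM after saline, and 130 to 254, 283 to 436 and 1063 to 33976 CPM after CD95-Ab. Of the 5 endothelial genes 4 were called higher, and Kdr was not called (0.29 on the log2 scale). Of the 4 stellate genes, Dcn (1.53) and Reln (1.49) rose, while Lrat (-0.12) and Colec11 (0.27) were not called. All 5 erythroid genes were called higher. In whole liver, a change in the number of cells of a type and a change in RNA per cell cannot be told apart.

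The largest rises after CD95-Ab were in the complement receptors of myeloid cells and in Cd55, while most secreted components were not called. Of the 36 genes, 35 were tested, and Cfd (adipsin, the protease that activates factor B) was too low, with 0 to 28 counts per mouse. At an adjusted p of 0.05 or less in edgeR's quasi-likelihood test with Benjamini-Hochberg adjustment over 13719 genes, 12 complement genes were called, or 34.3%, against 47.3% of all tested genes. Of these, 9 rose (25.7%, against 25.4% of all genes) and 3 fell (8.57%, against 22% of all genes). The other 23 were not called. The difference between these shares was not tested and varied with the settings. With every gene of at least 1 count tested, 33.3% of members and 29.9% of all genes were called, and with a replicate block 42.9% and 43.6%. With a log2 fold change of at least 2 required as well, 5 genes rose, or 14.3% against 6.59% of all genes. None fell past both thresholds, against 1.11% of all genes, and 16 of the 35 had an unadjusted p under 0.05, against 54.2% of all genes. The 5 that rose past both thresholds were membrane proteins: C5ar1, Itgam, Itgb2, Cd55 and C3ar1. The groups did not overlap and CD95-Ab was higher in 8 of the 35 complement genes, against 18.6% of all genes. CD95-Ab was lower without overlap in 4 of the 35, against 14.7% of all genes. Both directions together made up 34.3% of the 35. These shares were not far from those of all genes, and the difference was not tested. The median log2 fold change was 0.27 over the 35 genes and 0.01 over all genes. Among 27 tested secreted members, 4 rose (14.8%) and 2 fell (7.41%), with a median of 0.15. Among the 8 membrane members, 5 rose (62.5%) and 1 fell (12.5%), with a median of 2.37. Of all tested genes, 25.4% rose and 22% fell.

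**Figure D1:**
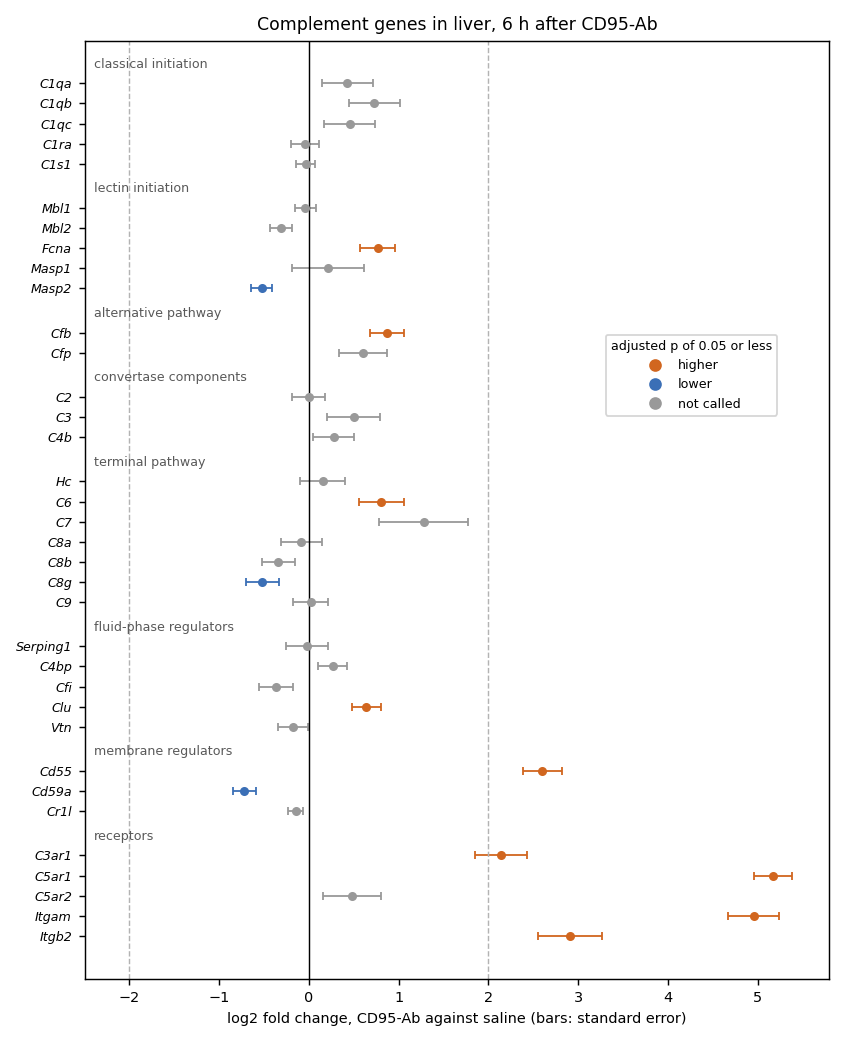
Log2 fold change of CD95-Ab against saline for each of the 35 tested complement genes, by role in the cascade, with n = 5 mice per group. Points are edgeR estimates, bars are standard errors, colours mark genes called higher or lower, and the dashed lines lie at -2 and 2. The 5 points beyond 2 are 4 receptors and Cd55.

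In saline mice the levels of the members spanned 4 orders of magnitude. On the FPKM scale, which corrects for length, C3 had a saline median of 1400, Vtn 1300, Clu 660 and Cfb 480. The saline ranges of C3 (616 to 2212 FPKM) and Vtn (1261 to 2117 FPKM) overlapped, so their order was not set by these mice. C3 is the central component cleaved by every pathway, and vitronectin (Vtn) and clusterin (Clu) hold back the terminal pore in plasma. C1qa, C1qb and C1qc, the chains of a single C1q complex, had saline medians of 33.8, 29.7 and 26.9 FPKM, with ranges that overlapped. Lowest were Cfd, at a saline median of 0.07 FPKM, a terminal component and the receptors. Itgb2 had a saline median of 1.25 FPKM, C5ar2 0.35, C3ar1 0.31, C5ar1 0.23, Itgam 0.22 and C7 0.2. Together the 36 genes took 1.17% to 2.93% of all counts in saline mice and 1.59% to 3.23% in CD95-Ab mice. The lowest share in each group belonged to the library with the low length slope.

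**Figure D2:**
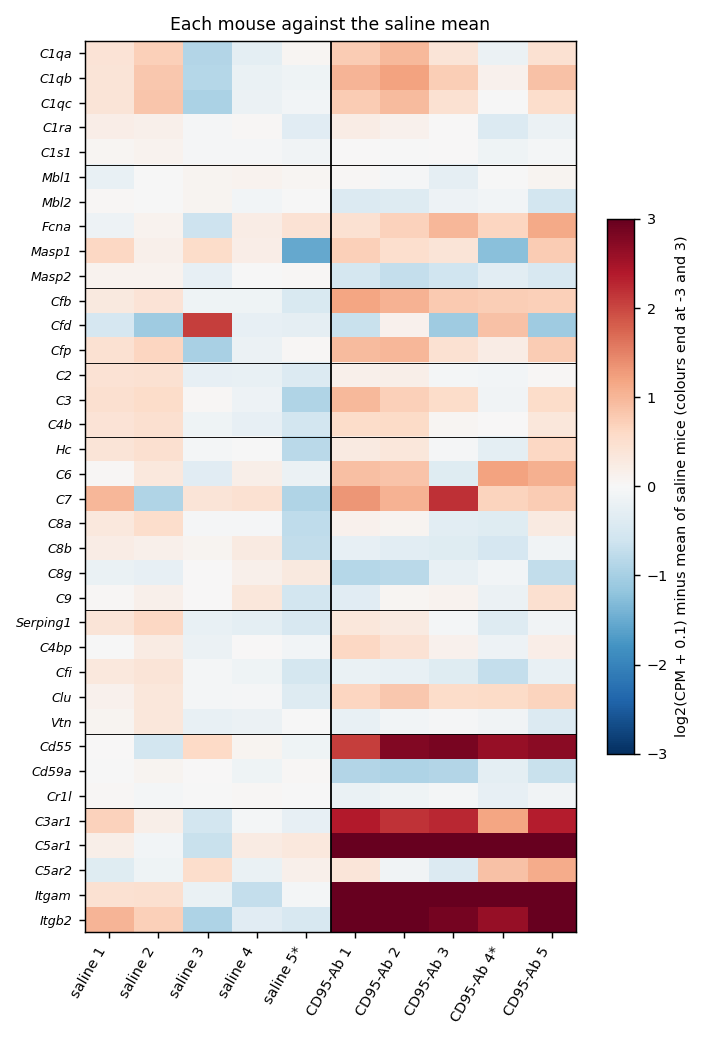
Log2(CPM + 0.1) of every complement gene in every mouse minus the mean of the 5 saline mice, with genes in rows by role and mice in columns. Red is above and blue below the saline mean, the colours end at -3 and 3, and asterisks mark saline replicate 5 and CD95-Ab replicate 4. C5ar1, Itgam, Itgb2, C3ar1 and Cd55 are red in all 5 CD95-Ab mice, while most secreted components stay pale.

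The receptors carried the strongest change. C5ar1 (ENSMUSG00000049130, chr7:16246743-16259540, minus strand) encodes the receptor for C5a that draws and activates neutrophils and macrophages. Its values were 0.588, 0.474, 0.282, 0.615 and 0.649 CPM in saline mice and 15.8, 19.3, 21.05, 16.9 and 22.0 CPM in CD95-Ab mice. The groups lay far apart, and the lowest CD95-Ab mouse was above 15 CPM. C5ar1 rose from 0.521 ± 0.149 to 19.02 ± 2.64 CPM (SD, n = 5 each), a log2 fold change of 5.17 (SE 0.21, edgeR adjusted p = 9.23e-08). Over all 22 alternative settings its log2 fold change stayed between 4.61 and 5.31.

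Itgam (ENSMUSG00000030786, chr7:128062640-128118491, plus strand) and Itgb2 (ENSMUSG00000000290, chr10:77530252-77565708, plus strand) encode the CD11b and CD18 chains of complement receptor 3. This integrin binds the C3 fragment iC3b and is carried by neutrophils, monocytes and macrophages. Itgam was 1.08, 1.10, 0.648, 0.423 and 0.723 CPM after saline and 20.6, 23.3, 30.2, 17.1 and 34.1 CPM after CD95-Ab. Itgam rose by 4.96 on the log2 scale (SE 0.28, edgeR adjusted p = 3.95e-07), with no overlap. Itgb2 was 9.22, 7.44, 2.31, 3.50 and 3.19 CPM after saline and 40.1, 42.0, 33.3, 28.0 and 49.6 CPM after CD95-Ab. The 2 highest saline values, in replicates 1 and 2, were still far below the lowest CD95-Ab value. Itgb2 rose by 2.91 on the log2 scale (SE 0.36, edgeR adjusted p = 5.46e-05). Itgb2 pairs with several other alpha chains of leukocyte integrins, so it is less particular to complement than Itgam.

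C3ar1 (ENSMUSG00000040552, chr6:122847138-122856161, minus strand) encodes the receptor for C3a. It was 2.26, 1.54, 0.901, 1.31 and 1.13 CPM in saline mice and 7.54, 6.43, 6.92, 3.23 and 7.44 CPM in CD95-Ab mice. CD95-Ab replicate 4, a library with a low length slope, was the lowest of its group but still above every saline mouse. C3ar1 rose by 2.14 on the log2 scale (SE 0.29, edgeR adjusted p = 1.05e-04), and by 2.21 without both low-slope libraries. C5ar2 encodes a second C5a receptor, which does not couple to G proteins. Its values were 0.917, 1.10, 1.77, 1.04 and 1.35 CPM after saline and 1.57, 1.11, 0.875, 2.30 and 2.70 CPM after CD95-Ab. The C5ar2 groups overlapped, and its log2 difference of 0.48 (SE 0.32, edgeR adjusted p = 0.247) was not called.

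Both peptide receptors rose, but not by the same amount. The log2 ratio of C5ar1 to C3ar1 CPM within a mouse was -1.94, -1.70, -1.68, -1.09 and -0.80 after saline, so C3ar1 had the higher CPM in each of these mice. After CD95-Ab the ratio was 1.07, 1.58, 1.60, 2.39 and 1.57, and C5ar1 had the higher CPM in 5 of 5 mice. CPM does not correct for length. On the FPKM scale the saline ranges overlapped, at 0.12 to 0.27 for C5ar1 and 0.22 to 0.6 for C3ar1. After CD95-Ab they were 5.91 to 9.12 FPKM for C5ar1 and 0.64 to 2.01 FPKM for C3ar1. The mean ratio differed by 3.08 (two-sided exact permutation test of 5 against 5 mice, p = 0.00794, the smallest this design allows). With Benjamini-Hochberg adjustment over the 6 ratios tested, the exact p was 0.0119. Neutrophil and monocyte marker sums moved with the receptors, as given above, and their part in the rise of C5ar1, Itgam, Itgb2 and C3ar1 was not tested. CD95-Ab replicate 1 had the lowest neutrophil sum of its group at 109 CPM, and it also had the lowest C5ar1 of its group, but not the lowest Itgam, Itgb2 or C3ar1. Those 3 were lowest in CD95-Ab replicate 4, which also had the lowest monocyte sum of its group, 67.2 CPM, the lowest macrophage sum, 278 CPM, and the low length slope.

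**Figure D3:**
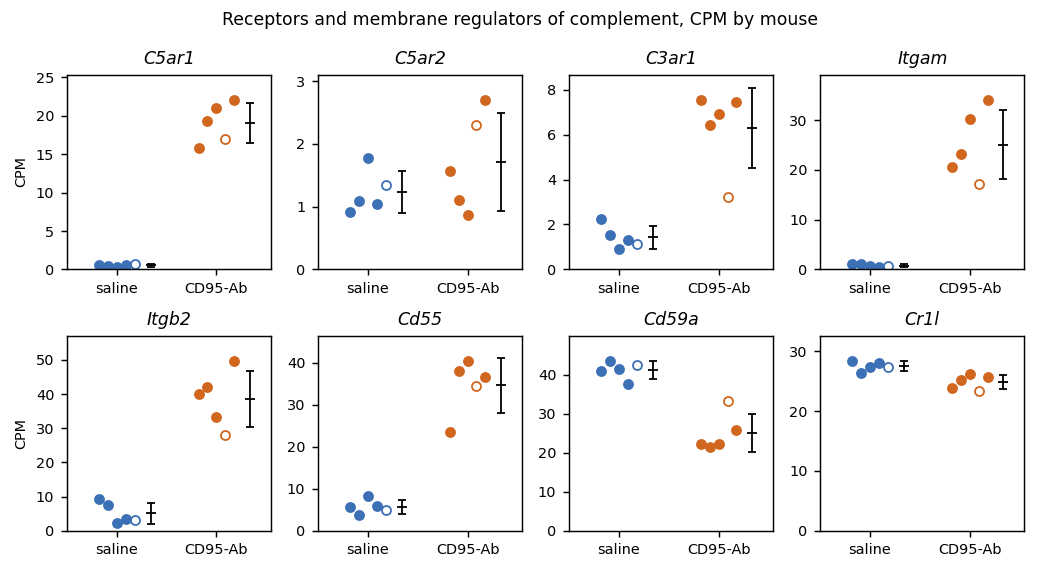
CPM of the 8 complement genes that encode membrane proteins, by mouse, in saline (blue) and CD95-Ab (orange) mice; each panel starts at 0 and has its own scale. Bars give the mean and SD of 5 mice and open circles mark the 2 libraries with a low length slope. C5ar1, Itgam, Itgb2, C3ar1 and Cd55 are higher in every CD95-Ab mouse, Cd59a and Cr1l are lower in every CD95-Ab mouse, and only C5ar2 overlaps.

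The membrane regulators did not move together. Cd55 (ENSMUSG00000026399, chr1:130439027-130462744, minus strand) encodes decay-accelerating factor, which takes convertases apart on the cell surface. Its values were 5.57, 3.73, 8.34, 5.81 and 5.02 CPM after saline and 23.4, 38.1, 40.3, 34.5 and 36.6 CPM after CD95-Ab. Every CD95-Ab mouse was well above the saline range, with replicate 1 the lowest. Its close copy Cd55b was at 0 in all 10 mice. Cd55 rose from 5.69 ± 1.68 to 34.6 ± 6.60 CPM (SD, n = 5 each), by 2.60 on the log2 scale (SE 0.22, edgeR adjusted p = 3.19e-06).

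Cd59a (ENSMUSG00000032679, chr2:104095801-104115354, plus strand) encodes the anchored protein that stops C9 from completing the pore. It was 40.9, 43.4, 41.5, 37.5 and 42.4 CPM after saline and 22.2, 21.4, 22.2, 33.3 and 25.9 CPM after CD95-Ab. The saline mice were closely grouped, and the nearest CD95-Ab mouse was replicate 4. Cd59a fell by 0.72 on the log2 scale (SE 0.13, edgeR adjusted p = 9.00e-04), and by 0.84 without both low-slope libraries. Cr1l encodes Crry, a rodent regulator of C3 and C4 cleavage. It was 28.3, 26.3, 27.4, 28.1 and 27.4 CPM after saline and 23.9, 25.1, 26.2, 23.3 and 25.6 CPM after CD95-Ab. The Cr1l groups just failed to overlap, but the log2 difference of -0.15 (SE 0.09, edgeR adjusted p = 0.181) was not called. The log2 ratio of Cd55 to Cd59a ran from -3.54 to -2.32 after saline and from 0.05 to 0.86 after CD95-Ab. It was higher in 5 of 5 CD95-Ab mice, by 3.36 on average (two-sided exact permutation test, p = 0.00794, adjusted 0.0119 over 6 ratios). Cd55 was higher and Cd59a lower without overlap, so this ratio had to separate the groups. Its p therefore adds nothing to the results of the single genes. Cd55 had the lower CPM of the pair in each saline mouse and the higher CPM in each CD95-Ab mouse. CPM does not correct for length, and on the FPKM scale the order after CD95-Ab was not set. The CD95-Ab median was 15.73 FPKM for Cd55 (11.28 to 17.06) and 16.05 FPKM for Cd59a (13.24 to 17.2).

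The promoters of the strongest risers, and of Cd59a as the membrane regulator that fell, are shown so that members that moved together can be compared by sequence. Each is the 200 bases before the RefSeq start site on GRCm38.p6, 5′ to 3′ on the strand of the gene. Of the 36 members, 27 matched the RefSeq promoter table, with 30 start sites among them, and Itgb2 was not among them. Capitals mark GAGGAA on either strand, the core bound by PU.1, a factor of myeloid cells.
Itgam, chr7:128062440-128062639, plus strand: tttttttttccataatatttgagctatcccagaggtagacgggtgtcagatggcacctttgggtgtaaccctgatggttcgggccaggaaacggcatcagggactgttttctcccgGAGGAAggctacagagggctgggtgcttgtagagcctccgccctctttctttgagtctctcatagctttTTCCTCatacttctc
C5ar1, chr7:16259339-16259538, minus strand: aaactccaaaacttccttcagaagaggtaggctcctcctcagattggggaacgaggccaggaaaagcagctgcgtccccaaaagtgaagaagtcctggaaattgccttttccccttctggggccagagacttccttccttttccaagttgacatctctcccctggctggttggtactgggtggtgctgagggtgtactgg
C3ar1, chr6:122856158-122856357, minus strand: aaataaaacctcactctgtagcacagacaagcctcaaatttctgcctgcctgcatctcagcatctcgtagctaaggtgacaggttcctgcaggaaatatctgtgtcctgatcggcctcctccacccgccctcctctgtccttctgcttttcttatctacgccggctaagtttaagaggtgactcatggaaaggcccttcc
Cd55, chr1:130462745-130462944, minus strand: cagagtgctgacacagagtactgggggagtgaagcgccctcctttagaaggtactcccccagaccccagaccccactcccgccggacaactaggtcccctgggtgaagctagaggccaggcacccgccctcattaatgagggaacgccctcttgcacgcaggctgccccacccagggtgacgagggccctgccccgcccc
Cd59a, chr2:104095601-104095800, plus strand: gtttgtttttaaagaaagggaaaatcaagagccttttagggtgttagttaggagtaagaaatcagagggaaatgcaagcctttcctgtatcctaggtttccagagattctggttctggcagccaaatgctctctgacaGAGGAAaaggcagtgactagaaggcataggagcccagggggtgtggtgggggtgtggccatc
Itgam held GAGGAA on its own strand and, nearer the start site, on the other strand (read as TTCCTC). Cd59a held it on its own strand, and C5ar1, C3ar1 and Cd55 held none in these windows. GAGGAA was found in 6 of the 30 member promoters and in 19.03% of 32851 promoters of the same length. The other motifs searched on both strands were TTCNNNGAA, the STAT site, in 2 of 30 and 5.49% of all; TTGCNNAA, the C/EBP site, in 3 of 30 and 7.47% of all; and the NF-kB decamer, in 1 of 30 and 6.07% of all. These are matches of letters only.

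None of the 5 classical pathway genes was called. C1qb, a chain of the C1q recognition complex, was 46.3, 61.2, 19.3, 30.7 and 31.9 CPM after saline and 71.4, 80.7, 58.5, 38.1 and 64.7 CPM after CD95-Ab. The groups overlapped, with saline replicates 1 and 2 high and CD95-Ab replicate 4 low. Its log2 difference of 0.73 (SE 0.29, edgeR adjusted p = 0.0533) just missed the threshold, and C1qb was called higher in 6 of 22 alternative fits. C1qa was 48.6, 59.9, 19.9, 30.1 and 38.3 CPM after saline and 62.0, 71.8, 47.9, 32.4 and 50.7 CPM after CD95-Ab. C1qc was 45.6, 61.7, 18.1, 30.8 and 33.0 CPM after saline and 59.1, 67.0, 48.1, 34.7 and 50.0 CPM after CD95-Ab. Both overlapped between the groups, and their log2 differences were 0.43 and 0.45, with edgeR adjusted p of 0.234 and 0.209. The 3 chains had the same 2 highest saline mice, replicates 1 and 2, and the same lowest, replicate 3. The summed macrophage markers ranked these saline mice alike, at 359, 455 and 133 CPM. In CD95-Ab mice the chains and this sum were highest in replicate 2 and lowest in replicate 4. Replicate 5 had a higher sum than replicate 1, at 547 and 530 CPM, while all 3 chains were higher in replicate 1. The part of macrophage content in the C1q values was not tested. The log2 ratio of summed C1q to Adgre1 (F4/80, a macrophage marker) was 2.76 to 4.66 after saline and 2.64 to 3.66 after CD95-Ab. Its mean difference of -0.41 was within the spread (two-sided exact permutation test of 5 against 5 mice, p = 0.333), and it was -0.26 without both low-slope libraries. Saline replicate 5 had the highest ratio, 4.66, and the next saline mouse was at 3.40. The proteases of the C1 complex, C1ra and C1s1, had log2 differences of -0.04 each, with edgeR adjusted p of 0.842 and 0.803. Their close copies C1rb and C1s2 were at most 0.363 CPM and 0.0637 CPM in any mouse.

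In the lectin pathway 1 gene rose, 1 fell and 3 were not called. Fcna encodes ficolin-A, a macrophage lectin that binds acetylated sugars. It was 22.3, 26.7, 16.0, 28.9 and 33.1 CPM after saline and 33.7, 39.7, 49.4, 38.5 and 54.7 CPM after CD95-Ab. The groups met without overlap, saline replicate 5 being just below CD95-Ab replicate 1. Fcna rose by 0.77 on the log2 scale (SE 0.20, edgeR adjusted p = 0.00716).

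Masp2 encodes the serine protease that cleaves C4 and C2 once a lectin has bound. It was 191, 192, 150, 177 and 182 CPM after saline and 123, 108, 116, 144 and 128 CPM after CD95-Ab. All CD95-Ab mice were below all saline mice, and Masp2 fell by 0.53 on the log2 scale (SE 0.12, edgeR adjusted p = 0.00364). Tardbp overlaps Masp2 on the opposite strand over 3118 bases and averaged 82.9 CPM after saline and 68.3 CPM after CD95-Ab. Whether reads were counted by strand is not given in the sources used here, so the reads of this pair may not be fully separated. Masp1, a related protease, was 12.5 CPM in saline replicate 5 and 15.1 CPM in CD95-Ab replicate 4, while the other 8 mice lay between 39.9 and 61.5 CPM. Its log2 difference of 0.21 (SE 0.40) was not called, and leaving both libraries out gave 0.20. Rtp4 overlaps Masp1 on the opposite strand over 525 bases and averaged 14.0 CPM after saline and 37.6 CPM after CD95-Ab. The same limit on separating reads by strand holds for this pair. The mannose-binding lectins Mbl1 and Mbl2 are made by hepatocytes. Mbl2 was 331 to 373 CPM after saline and 242 to 330 CPM after CD95-Ab, just without overlap, with a log2 difference of -0.31 (SE 0.12, edgeR adjusted p = 0.0581) that was not called. Without both low-slope libraries Mbl2 was called lower, at -0.38 (edgeR adjusted p = 0.0210). Mbl1 differed by -0.04 (edgeR adjusted p = 0.796), and the log2 ratio of Mbl1 to Mbl2 differed by 0.28 (two-sided exact permutation test of 5 against 5 mice, p = 0.103).

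Among the alternative pathway and convertase genes, Cfb rose and C3, C2 and C4b were not called. Cfb (ENSMUSG00000090231, chr17:34856374-34862518, minus strand) encodes factor B, which supplies the catalytic part of the alternative convertase. It was 1246, 1353, 940, 939 and 741 CPM after saline and 2304, 2115, 1751, 1705 and 1667 CPM after CD95-Ab. The groups did not overlap. Cfb rose from 1044 ± 250 to 1908 ± 285 CPM (SD, n = 5 each), by 0.87 on the log2 scale (SE 0.19, edgeR adjusted p = 0.00310).

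C2 lies beside Cfb and encodes the matching catalytic subunit of the classical and lectin convertase. It was 179, 185, 112, 114 and 100 CPM after saline and 148, 151, 129, 125 and 137 CPM after CD95-Ab. Saline replicates 1 and 2 were above every CD95-Ab mouse, the other 3 saline mice were below every one, and both groups averaged 138 CPM. The log2 ratio of Cfb to C2 was 2.80, 2.87, 3.07, 3.04 and 2.89 after saline and 3.96, 3.81, 3.77, 3.77 and 3.61 after CD95-Ab. It was higher in 5 of 5 CD95-Ab mice, by 0.85 on average (two-sided exact permutation test, p = 0.00794, adjusted 0.0119 over 6 ratios). Both genes are overlapped on their strand by the readthrough gene Gm20547, which was near 0.3 CPM in both groups.

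C3 (ENSMUSG00000024164, chr17:57203970-57228136, minus strand) was the most abundant member by CPM. It was 9301, 9833, 6855, 6080 and 3597 CPM after saline and 13296, 11077, 9877, 6205 and 9869 CPM after CD95-Ab. The lowest mouse of each group was the low-slope library, and the groups overlapped through CD95-Ab replicate 4. Its log2 difference of 0.50 (SE 0.29, edgeR adjusted p = 0.182) was not called, and it was 0.45 (adjusted p = 0.117) without both low-slope libraries. C3 alone took 0.313% to 1.12% of all counts in saline mice and 0.527% to 1.51% in CD95-Ab mice. Relative to Alb, the most abundant of the hepatocyte markers, C3 was higher. The log2 ratio of C3 to Alb was -3.21, -2.95, -3.65, -3.67 and -4.77 after saline and -1.75, -1.74, -2.63, -2.45 and -1.63 after CD95-Ab. The groups did not overlap, and the mean differed by 1.61 (two-sided exact permutation test, p = 0.00794, adjusted 0.0119 over 6 ratios). Alb itself fell by 1.03 on the log2 scale (edgeR adjusted p = 0.00529), which is the larger share of that difference. Of the 7 hepatocyte markers, 5 were not called, with log2 differences from -0.72 (Cps1) to 0.31 (Tat). C4b, the mouse C4 cleaved in the classical and lectin pathways, ran from 944 to 1936 CPM and from 1396 to 2060 CPM, with a log2 difference of 0.28 (edgeR adjusted p = 0.339). C4b and C4a are near-identical copies, and the split of reads between them is uncertain. Cfp, which encodes properdin, the stabilizer of the alternative convertase, had a log2 difference of 0.60 (SE 0.26, edgeR adjusted p = 0.0793).

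**Figure D4:**
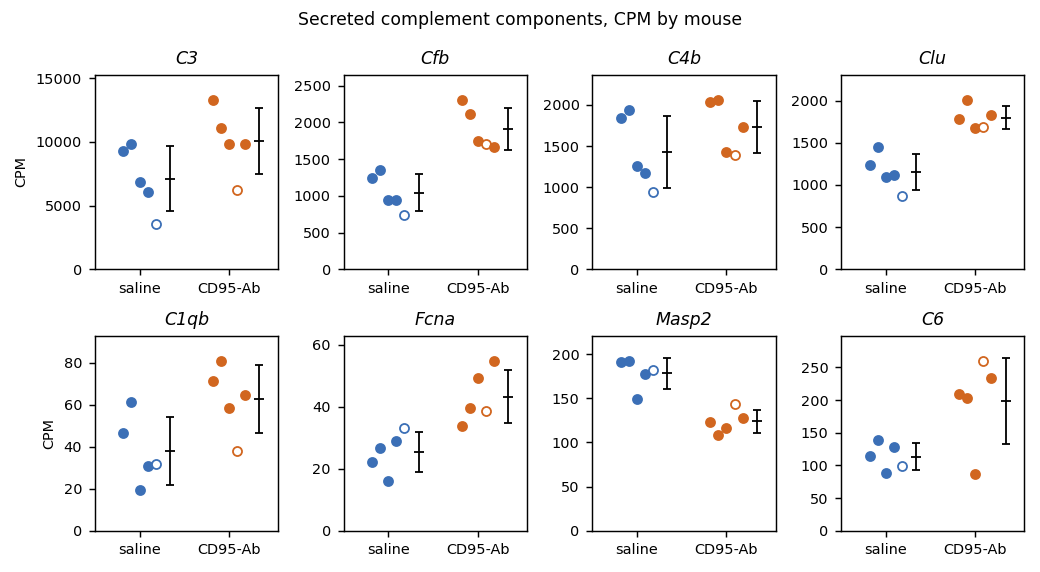
CPM of 8 complement genes that encode secreted proteins, by mouse, in saline (blue) and CD95-Ab (orange) mice; each panel starts at 0 and has its own scale. Bars give the mean and SD of 5 mice and open circles mark the 2 libraries with a low length slope. Cfb, Clu and Fcna are higher and Masp2 is lower without overlap, while C3, C4b, C1qb and C6 overlap.

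The terminal pathway was split: C6 rose, C8g fell and 5 of 7 genes were not called. C6, which joins C5b to start the pore, was 114, 139, 89.0, 127 and 98.5 CPM after saline and 209, 204, 86.6, 259 and 234 CPM after CD95-Ab. CD95-Ab replicate 3 was below every saline mouse, and the other 4 CD95-Ab mice were above them all. C6 rose by 0.81 on the log2 scale (SE 0.25, edgeR adjusted p = 0.0197). This call was lost without both low-slope libraries (0.64, adjusted p = 0.0861), with library totals (adjusted p = 0.0530) and with limma on FPKM (adjusted p = 0.0887). Erythroid marker sums were highest in the same CD95-Ab replicate 3, at 33976 CPM, and their part was not tested.

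C8g, the gamma chain of C8, was 218, 212, 253, 278 and 306 CPM after saline and 139, 143, 213, 237 and 150 CPM after CD95-Ab. The groups overlapped, with CD95-Ab replicates 3 and 4 inside the saline range. C8g fell by 0.52 on the log2 scale (SE 0.18, edgeR adjusted p = 0.0342), a call lost in 6 of 10 fits that left out a single mouse. Fbxw5 overlaps C8g on the opposite strand over 970 bases, at a mean of 24.9 CPM after saline and 22.8 CPM after CD95-Ab. Their reads may not be fully separated, since the strand setting is not given. C8a, C8b and C9 encode the other chains of C8 and the pore-forming subunit. Their log2 differences were -0.08, -0.34 and 0.02, with edgeR adjusted p of 0.785, 0.142 and 0.943. C8b was 197 CPM in saline replicate 5 and 350 to 397 CPM in the other saline mice, and without both low-slope libraries it was called lower, at -0.45 (adjusted p = 0.00760). Hc, the mouse C5 gene, ran from 476 to 1180 CPM and from 689 to 1299 CPM, with a log2 difference of 0.15 (edgeR adjusted p = 0.640). C7 was low in every mouse, at 0.148 to 0.823 CPM after saline and 0.646 to 2.03 CPM after CD95-Ab, and its log2 difference of 1.28 (SE 0.50, edgeR adjusted p = 0.0517) was not called.

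Of the 5 regulators in plasma, only Clu was called. Clu (ENSMUSG00000022037, chr14:65968483-65981547, plus strand) was 1240, 1452, 1095, 1119 and 871 CPM after saline and 1784, 2006, 1678, 1688 and 1825 CPM after CD95-Ab. Every CD95-Ab mouse was above every saline mouse, and Clu rose by 0.64 on the log2 scale (SE 0.16, edgeR adjusted p = 0.00666). With library totals in place of TMM factors, this call was lost (0.54, adjusted p = 0.0573). Serping1, the C1 inhibitor, and Vtn had log2 differences of -0.02 and -0.18 (edgeR adjusted p of 0.939 and 0.394). C4bp, which binds C4b, and Cfi, the protease that inactivates C3b and C4b, had log2 differences of 0.27 and -0.37 (edgeR adjusted p of 0.197 and 0.123). Cfi was called lower without both low-slope libraries (-0.41, adjusted p = 0.0455).

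A further 28 genes of the pathway were followed by a list, and 20 of them were tested. Of these, 5 rose and 6 fell, so that 55% were called against 47.3% of all genes. Those that rose were Cd93 (3.95 on the log2 scale, a receptor studied as a C1q binder), Itgax (3.71, the CD11c chain of complement receptor 4), Apcs (2.10, serum amyloid P), Crp (1.43) and Colec10 (1.16, a collectin). Apcs and Crp encode pentraxins that can bind C1q. Itgax ran from 0.253 to 1.34 CPM after saline and from 7.68 to 12.7 CPM after CD95-Ab, and so moved in the same direction as Itgam and Itgb2. Those that fell included Cpn2 (-0.77) and Cpn1 (-0.60), the subunits of the carboxypeptidase that trims C3a and C5a, and C1rl (-0.75). Vsig4, the iC3b receptor of Kupffer cells, ran from 11.0 to 25.0 CPM and from 11.9 to 29.9 CPM, with a log2 difference of -0.02 (edgeR adjusted p = 0.955).

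**Figure D5:**
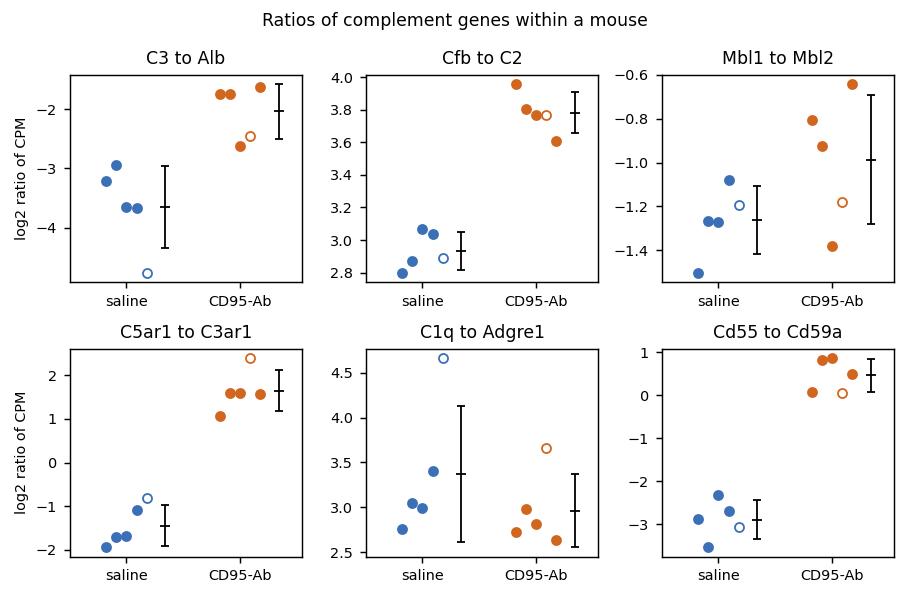
Log2 ratio of CPM of 6 gene pairs in each mouse, saline (blue) and CD95-Ab (orange), with the mean and SD of 5 mice and open circles for the 2 libraries with a low length slope. C3 to Alb, Cfb to C2, C5ar1 to C3ar1 and Cd55 to Cd59a are higher in every CD95-Ab mouse, while Mbl1 to Mbl2 and C1q to Adgre1 overlap.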

How the data were processed

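Liver RNA of 10 mice was sequenced as read pairs, and the authors' alignment and counting with RSEM 1.2.19 gave the deposited expected counts per gene, which held whole numbers. The deposited FPKM values, made by the authors from those counts and transcript length, were used for levels between genes. The study names a human Gencode release for the assignment of reads, while the deposited gene identifiers are those of mouse. The mouse release, the aligner and the strand setting are not given in the sources used here. Coordinates came from GRCm38 with GENCODE mouse release 21. Genes were tested with edgeR 4.0.16 (R 4.3.3): low counts removed by filterByExpr at 10, TMM factors, a quasi-likelihood fit of group alone over 10 mice, and Benjamini-Hochberg adjustment over 13719 genes. Ratios of CPM within a mouse were compared by exact permutation. DESeq2 1.42.0, limma 3.58.1 on log2(FPKM + 0.1), other factors, filters and mice left out were the alternatives. Leaving out both low-slope libraries, and the slope as a covariate, were chosen after the data were seen. Scripts were tested on simulated data.

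The members and lists were chosen with earlier results of these data known. All 36 members are named, with values by mouse for those called and for C3, Cfb and the C1q chains, and so are called genes among 28 others of the pathway, some of which are counted but not reported here by name. Vsig4, C4a and copies or neighbours of members were named outside this rule, with their values seen. Mice of equal replicate number were not treated as pairs in the main fit. The mean correlation of deviations was 0.06 for equal numbers (-0.30 to 0.31) and -0.01 for unequal numbers (-0.40 to 0.57). With 5 equal pairs, these values cannot settle whether the mice were paired. Labels call the samples biological replicates. Totals of 25965699 to 62097636 counts limit the precision of genes near 1 CPM, and this covers counting error only.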

Additional observations from a re-analysis of the deposited data

Results flagged for a closer look

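Gaps were examined within 84 groups of 5 mice, and chance alone marks about 1 group in 20. Cfd was 0.788 CPM in saline replicate 3 and at most 0.0769 CPM in the other 4 saline mice, so this mouse, with 28 counts, stood far above its group, and the other 4 were near the limit of counting. C8b was 197 CPM in saline replicate 5 and 350 to 397 CPM in the other saline mice. C3ar1 was 3.23 CPM in CD95-Ab replicate 4 and 6.43 to 7.54 CPM in the other CD95-Ab mice. Saline replicate 5 and CD95-Ab replicate 4 are the libraries with the low length slope, and the part of that slope in these values was not tested.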

How the results depend on the processing

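The counts of members called were 11 to 15 when a single mouse was left out, with 9 to 12 higher and 2 to 4 lower. In each of these fits 5 members passed both thresholds. The share of all genes called is not given here for fits with a mouse left out, so their counts cannot be read against it. Members lower numbered 5 with upper quartile factors, 6 without both low-slope libraries and 6 with the length slope as a covariate, against 3; the cause was not tested. In the fit without these libraries 14 members were called, or 40%, against 51.5% of all genes. The shares were 40% and 49.2% with upper quartile factors, and 42.9% and 54.5% with the length slope as a covariate. Only 4 members passed both thresholds with that covariate, since C3ar1 was then at 1.95. Library totals gave 7 higher and 4 lower (31.4% of members, against 44.6% of all genes), and DESeq2 11 and 4 (42.9%, against 51.0%). Of the other pathway genes, 8 rose when each gene with at least 1 count was tested, where 29.9% of all genes were called in either direction. At an adjusted p of 0.01 or less 3 fell, as fewer genes reach that limit. With a mouse left out, 9 to 13 were called, 5 to 6 higher and 4 to 7 lower. Shares of this list in these settings, and shares of all genes in the last 2, are not given here. These counts therefore cannot be read as a result about the list. With a replicate block, 15 members were called, 12 higher and 3 lower, or 42.9% against 43.6% of all genes. Under the paired test by number the ratio differences of 1.61 (C3 to Alb), 0.85 (Cfb to C2), 3.08 (C5ar1 to C3ar1) and 3.36 (Cd55 to Cd59a) had an exact p of 0.0625, the smallest that 5 pairs allow, adjusted to 0.0938. Without CD95-Ab replicate 3, Mbl1 to Mbl2 differed by 0.38 (exact permutation p adjusted to 0.0381). With a mouse left out, the differences were 1.33 to 1.78 for C3 to Alb, 0.80 to 0.89 for Cfb to C2, 2.90 to 3.24 for C5ar1 to C3ar1, 3.20 to 3.51 for Cd55 to Cd59a, 0.19 to 0.38 for Mbl1 to Mbl2 and -0.58 to -0.09 for C1q to Adgre1. C5ar1, Itgam, Itgb2, Cd55, C3ar1, Cfb, Fcna, Masp2 and Cd59a kept their call and direction in all 22 alternative fits. Calls were gained by C1qb in 6 fits, Mbl2 in 7, C7 in 5, C8b and Cfi in 3 each, Cfp in 2, and C1qc and Cr1l in 1 each. Genes near 1 CPM, such as C7 and C5ar2, are limited by depth.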

Other observations

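The 3 chains of C1q kept a nearly fixed ratio in saline mice, where C1qb over C1qc ran from 0.967 to 1.07. After CD95-Ab it ran from 1.10 to 1.30, above every saline mouse, while C1qa over C1qc ran from 0.971 to 1.16 and from 0.934 to 1.07. This difference was seen in the values and not tested. C4a was 82.0 CPM in CD95-Ab replicate 4 and 11.6 to 25.8 CPM in the other CD95-Ab mice.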
